A study of Mus musculus with 5 samples.

Results

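The bone morphogenetic protein (BMP) ligands Bmp2, Bmp4, Bmp6 and Bmp7, the secreted antagonists Grem1, Nog and Chrdl1, and the target genes Id1, Id2 and Id3 were examined in cultured mouse glia and neural progenitors. These 10 genes were found among 20178 RefSeq transcripts by mapping each transcript to its gene symbol, and each symbol matched 1 transcript. RefSeq lists 2 transcripts for Bmp4 and 3 each for Chrdl1 and Id1, of which the files hold 1. The set was chosen by its readout, because Bmp4 was low in 1 of the libraries only, so the levels below are descriptions and the pattern that led to the choice is no finding.

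BMPs are secreted ligands of the TGF-beta family that act as dimers. They bind a type I and a type II receptor. The type I receptor phosphorylates Smad1, Smad5 and Smad9, and these enter the nucleus with Smad4. Id genes are among the quickest targets to respond, and their proteins lack a DNA-binding region and hold E proteins and other basic helix-loop-helix factors away from DNA. Noggin, chordin-like 1 and gremlin 1 bind BMPs outside the cell and keep them from the receptors. In the developing brain, BMP signals are known for dorsal patterning and for favouring astrocyte over oligodendrocyte and neuronal fates.

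The data are reads per RefSeq transcript in 5 RNA-seq libraries with 1 library per condition. All cultures came from ICR mice and were at passage 2. The ventral midbrain (VM) libraries are astrocyte progenitor cells of postnatal day 5: untransduced (VM), titled C (VM C) and titled NF (VM NF). The other libraries are cortical astrocyte progenitor cells of postnatal day 5 (Ctx AST) and cortical neural progenitor cells of E12 embryos (Ctx NPC), both untransduced. In the study's methods, N and F are Nurr1 (mouse cDNA) and Foxa2 (rat cDNA), each driven by a CMV promoter in a lentivirus, and the control is the empty backbone. The CMV promoter is not restricted to a cell type. For the libraries VM C and VM NF, the titles and the treatment entries of the labels contradict each other: the library titled C is entered as carrying the Nurr1 and Foxa2 viruses and the one titled NF as carrying mock virus. The titles are followed here, and with the treatment entries the names of these libraries would be exchanged.

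Library totals ran from 20010818 to 22554835 reads. Nr4a2, which encodes Nurr1, had 81 reads in VM, 53 in VM C, 183 in VM NF, 106 in Ctx AST and 93 in Ctx NPC. For Foxa2 the numbers were 68 in VM, 15 in VM C, 216 in VM NF, 1 in Ctx AST and 0 in Ctx NPC. The library titled NF held the most of both, as its title would have it and not as its treatment entry would. Of the defining markers, Gfap (astrocytes) had 8923 reads in VM, 11040 in VM C, 4316 in VM NF, 27820 in Ctx AST and 122531 in Ctx NPC. Mbp (mature oligodendrocytes) had 75411 reads in Ctx NPC against 251 to 3543 in the astrocyte libraries, so the library labelled neural progenitor cells also held high levels of astrocyte and oligodendrocyte markers. Aif1 (microglia) had 311 reads in VM C and 4 to 46 in the others. VM C was lower than VM in 8.48% of transcripts and higher in 7.30% by the limits used throughout: 2-fold, with FPKM above 1 in at least 1 of the 2 libraries compared. By the same limits, VM NF was lower than VM in 0.668% and higher in 0.322%, so the library titled NF stood closer to the untransduced culture. FPKM is a read number scaled to transcript length and library total, and so allows genes to be compared. With 1 library per condition no spread between cultures could be estimated and no test was made, and the 95% intervals below cover the counting error of the reads only. In bulk RNA, fewer cells of a type and less RNA per cell cannot be told apart.

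Promoter sequence is shown for Bmp4, the ligand with the widest range, and for Id2 and Id3, Id genes whose ratios had opposite signs in VM C against VM. Each is the 250 bases before the RefSeq start site on the gene's strand, 5′ to 3′, in GRCm38.p6. Capitals mark GTCT or its reverse complement AGAC, the core of the Smad-binding element, and GGCGCC, a GC-rich site known for Smad1 and Smad5. The windows are chr14:46390670-46390919 on the minus strand for Bmp4, chr12:25096093-25096342 on the minus strand for Id2 and chr4:136143572-136143821 on the plus strand for Id3.
Bmp4: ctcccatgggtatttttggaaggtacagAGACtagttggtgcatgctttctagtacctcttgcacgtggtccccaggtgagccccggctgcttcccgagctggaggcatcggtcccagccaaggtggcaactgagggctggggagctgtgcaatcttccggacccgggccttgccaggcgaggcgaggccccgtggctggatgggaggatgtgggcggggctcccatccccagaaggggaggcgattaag
Id2: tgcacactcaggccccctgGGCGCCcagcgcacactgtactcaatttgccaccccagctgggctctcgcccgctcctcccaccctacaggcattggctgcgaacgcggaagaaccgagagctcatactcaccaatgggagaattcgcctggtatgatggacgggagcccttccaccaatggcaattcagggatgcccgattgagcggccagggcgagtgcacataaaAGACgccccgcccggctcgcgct
Id3: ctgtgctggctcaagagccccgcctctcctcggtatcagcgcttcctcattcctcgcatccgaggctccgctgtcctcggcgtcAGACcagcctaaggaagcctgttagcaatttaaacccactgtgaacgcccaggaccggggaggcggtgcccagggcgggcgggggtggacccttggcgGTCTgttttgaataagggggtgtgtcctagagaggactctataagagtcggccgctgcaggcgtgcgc

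The Bmp4 window held 1 match to the Smad core, 222 bases before the start, and none to the GC-rich site. The Id2 window held 1 core match 23 bases before the start and 1 GC-rich site 231 bases before it. The Id3 window held 2 core matches, at 166 and 68 bases, and no GC-rich site. CANNTG, the E-box bound by the factors that Id proteins block, was found 3 times in the Bmp4 window, 1 time in that of Id2 and not in that of Id3. The motifs were searched separately on both strands, so matches may overlap, and the Smad core was present in 82.9% of the 32851 windows of this length, the GC-rich site in 9.59% and the E-box in 66.2%. Of the windows given in the table of promoters, 5 belong to the genes described here, and those of Grem1 and Bmp6 held 4 and 3 core matches. The GC content was 63.2% in the Bmp4 window and 62.8% in each Id window, against a median of 52.4% over all windows.

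Bmp4 was the ligand with the widest range over the 5 libraries, and the order of the ligands changed from one library to the next. Bmp4 (NM_007554, chr14:46383525-46390669), a ligand of dorsal and epidermal patterning, had 1090 reads in VM, 80 in VM C, 1046 in VM NF, 463 in Ctx AST and 2433 in Ctx NPC. Its FPKM was 24.8 in VM, 1.72 in VM C, 24.9 in VM NF, 10.5 in Ctx AST and 58.9 in Ctx NPC. VM and VM NF were alike, VM C lay far below every other library, and Ctx NPC was highest. The highest FPKM was 34.3-fold above the lowest. Ranked by FPKM among all transcripts of a library, Bmp4 stood at place 1375 in Ctx NPC and at place 11489 in VM C. Its annotated GENCODE exons overlap those of Gm15217 on the opposite strand by 89 bases, and whether reads were counted by strand is not given in the sources used here.

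Bmp6 (NM_007556, chr13:38345716-38500314), also known as the ligand that controls hepcidin in iron balance, had 1087 reads in VM, 232 in VM C, 1264 in VM NF, 1359 in Ctx AST and 245 in Ctx NPC. Its FPKM was 17.0, 3.43, 20.7, 21.1 and 4.08 in the same order. Bmp6 was thus low in VM C, as Bmp4 was, but it was also low in Ctx NPC, where Bmp4 was highest. Its exons overlap those of Txndc5 on the opposite strand by 224 bases. Txndc5 had between 3988 and 6222 reads.

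Bmp7 (NM_007557, chr2:172868012-172940321), a ligand known for kidney, eye and skeletal development, had 355 reads in VM, 651 in VM C, 368 in VM NF, 334 in Ctx AST and 349 in Ctx NPC. Its FPKM was 4.53, 7.85, 4.92, 4.24 and 4.74. Bmp7 was highest in VM C and lay close together in the other 4 libraries. Bmp2 (NM_007553, chr2:133552159-133562896), the close relative of Bmp4 known for bone and heart development, had 190, 267, 191, 185 and 13 reads, or FPKM of 2.50, 3.32, 2.63, 2.42 and 0.182. It was low in Ctx NPC only, and was lower than Bmp4 in every library except VM C, where its FPKM of 3.32 stood above the 1.72 of Bmp4.

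**Figure D1:**
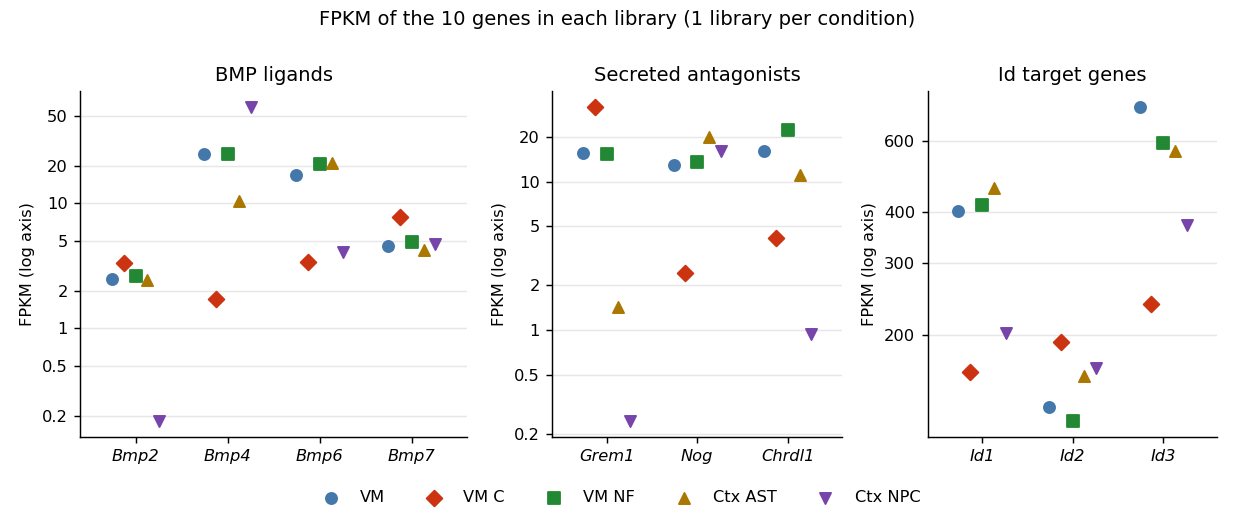
FPKM (log axis) of the 4 ligands, 3 antagonists and 3 Id genes, with 1 point per library and no error bars, since each condition has 1 library. In VM C (diamonds) Bmp4 lies at 1.72 against 10.5 to 58.9 in the other libraries, while Grem1 at 32.0 and Id2 at 193 are at their highest there.

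Summed over the 4 ligands, FPKM was 48.8 in VM, 16.3 in VM C, 53.2 in VM NF, 38.2 in Ctx AST and 67.9 in Ctx NPC. Bmp4 gave 50.8% of this sum in VM, 46.9% in VM NF, 27.4% in Ctx AST and 86.7% in Ctx NPC, but 10.5% in VM C. The leading ligand was Bmp4 in VM, VM NF and Ctx NPC, Bmp6 in Ctx AST with 55.2% of the sum, and Bmp7 in VM C with 48.1%. These sums add transcripts per length and say nothing of the amount or activity of the proteins.

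The antagonists differed in which cultures they marked. Grem1 (NM_011824, chr2:113748675-113758648), an antagonist of Bmp2, Bmp4 and Bmp7 known from limb development and from fibroblasts, had 551 reads in VM, 1183 in VM C, 512 in VM NF, 50 in Ctx AST and 8 in Ctx NPC. Its FPKM was 15.8, 32.0, 15.3, 1.42 and 0.244. Grem1 was at FPKM 15.3 or more in the 3 midbrain libraries and at 1.42 or less in both cortical ones, and its highest value was 131-fold above its lowest, the widest range of the 10 genes. Of meningeal fibroblast markers, 7 of 10 were higher in VM C than in VM and 8 of 10 were lower in Ctx AST than in VM. Their summed level was 1924 CPM (reads scaled to library totals) in VM, 1386 in VM C, 2009 in VM NF, 780 in Ctx AST and 157 in Ctx NPC, with the defining marker Dcn at 1551, 2583, 1213, 122 and 180 reads and Lum at 210, 325, 162 and 27 in the astrocyte libraries. Lum, like Dcn, had more reads in Ctx NPC than in Ctx AST, while Grem1 had fewer. Of the 10 markers, 4 were higher and 6 lower in Ctx NPC than in Ctx AST. The part of such cells in the level of Grem1 was not tested.

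Nog (NM_008711, chr11:89300638-89302559), which encodes noggin, had 533 reads in VM, 106 in VM C, 533 in VM NF, 825 in Ctx AST and 622 in Ctx NPC, or FPKM of 13.0, 2.44, 13.6, 20.01 and 16.2. It was low in VM C alone. Chrdl1 (NM_001114385, chrX:143285674-143394263), an antagonist of Bmp4 that astrocytes secrete and that is known for synapse maturation, had 1400, 385, 1846, 972 and 76 reads, or FPKM of 16.1, 4.19, 22.3, 11.1 and 0.933. Chrdl1 was low in VM C and lower still in Ctx NPC.

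The antagonist sum was 44.9 FPKM in VM, 38.6 in VM C, 51.3 in VM NF, 32.6 in Ctx AST and 17.3 in Ctx NPC. Its make-up differed widely between libraries. Grem1 gave 35.1% of it in VM, 82.8% in VM C, 29.9% in VM NF, 4.36% in Ctx AST and 1.41% in Ctx NPC. Nog gave 61.4% in Ctx AST and 93.2% in Ctx NPC, against 6.33% in VM C. In VM and VM NF the 3 antagonists were within 2-fold of each other, with Chrdl1 highest at 35.9% and 43.5%.

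**Figure D2:**
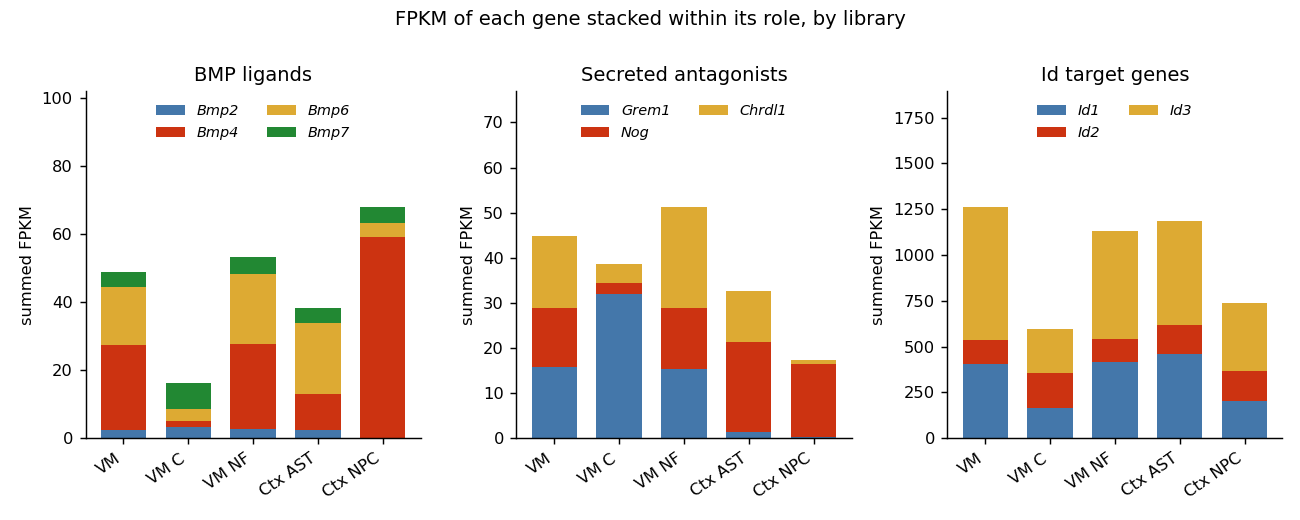
Stacked FPKM of the 4 ligands, the 3 antagonists and the 3 Id genes in each library, with axes starting at 0 and 1 library per bar. In VM C the ligand bar falls to 16.3 and is mostly Bmp7, Bmp6 and Bmp2, and the antagonist bar is 82.8% Grem1.

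The Id genes were expressed far above the ligands in every library. Id3 (NM_008321, chr4:136143822-136145392) had 14759 reads in VM, 5150 in VM C, 11481 in VM NF, 11589 in Ctx AST and 7107 in Ctx NPC, or FPKM of 725, 239, 590, 566 and 372. It ranked between place 42 and place 188 among all transcripts by FPKM. Id1 (NM_010495, chr2:152736251-152737410) had 8055, 3436, 7959, 9231 and 3795 reads, or FPKM of 404, 163, 418, 460 and 203. Id1 and Id3 were both lowest in VM C and second lowest in Ctx NPC.

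Id2 (NM_010496, chr12:25093799-25096092), which is also known to respond to signals other than BMPs, had 3616 reads in VM, 5537 in VM C, 3196 in VM NF, 4342 in Ctx AST and 4249 in Ctx NPC. Its FPKM of 133, 193, 123, 159 and 167 made it the steadiest of the 10 genes, with a highest value 1.56-fold above the lowest. VM C was its highest library, the reverse of Id1 and Id3. Id2 gave 32.4% of the summed Id FPKM of 594 in VM C, against 10.6% of 1262 in VM.

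VM C against VM compares the library titled as control with the untransduced culture. The choice of the genes rests on this contrast for Bmp4, so its values are given with no weight beyond description. Bmp4 had a log2 ratio of -3.84 [95% interval -4.20 to -3.52], which is 14.3-fold, and 36 of 12703 transcripts had a lower ratio. Nog had a log2 ratio of -2.41 [-2.73 to -2.11], Bmp6 of -2.31 [-2.52 to -2.10] and Chrdl1 of -1.94 [-2.11 to -1.78]. Of the Id genes, Id3 had a log2 ratio of -1.60 [-1.65 to -1.56] and Id1 of -1.31 [-1.37 to -1.25].

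The remaining genes had ratios above 0. Grem1 had a log2 ratio of 1.02 [0.87 to 1.17], which lies past 2-fold but with an interval that spans it. Bmp7 had 0.79 [0.60 to 0.98], Id2 0.53 [0.47 to 0.59] and Bmp2 0.41 [0.13 to 0.68], none of them past 2-fold. In all, 6 of the 10 genes were past 2-fold lower and 1 higher, beside the 8.48% and 7.30% of all transcripts. Since the genes were chosen with this contrast known, nothing is read from that count.

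The low and the high genes each held ligands and antagonists: Bmp4, Bmp6, Nog and Chrdl1 were all low in VM C, while Grem1, Bmp7 and Bmp2 had their highest values of the 5 libraries there. Measured against both other midbrain libraries at once, 890 of 12791 transcripts (6.96%) were low at 2-fold in VM C only, and Bmp4, Bmp6, Nog, Chrdl1, Id1 and Id3 were among them. A further 764 (5.97%) were high in VM C only, Grem1 among them. Microglial markers moved along with this pattern: 10 of 10 were higher in VM C than in VM, with sums of 202 CPM in VM, 838 in VM C and 137 in VM NF, and Cx3cr1 at 30, 128 and 14 reads. Ependymal markers moved the other way, with 6 of 6 lower in VM C, sums of 328, 62.3 and 311 CPM, and Foxj1 at 6527, 1214 and 5996 reads. Oligodendrocyte precursor markers were higher in 8 of 8, with sums of 389, 829 and 352 CPM and Pdgfra at 1691, 4191 and 1760 reads. The part of these cells in the levels of the BMP genes was not tested.

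Astrocyte markers summed to 1793 CPM in VM, 1541 in VM C and 1502 in VM NF, and 3 of 10 were higher in VM C than in VM. Mature oligodendrocyte markers summed to 269, 423 and 216 CPM, with 7 of 8 higher in VM C than in VM, and endothelial markers to 67.6, 135 and 79.8, with 4 of 6 higher. Neuronal markers summed to 691, 545 and 592 CPM, but 5 of 7 were higher in VM C, with Tubb3 at 265, 814 and 150 reads and Rbfox3 at 3, 9 and 7. The endothelial marker Cldn5 was at 0 or 1 read in every library, while Cdh5 had 391 reads in VM, 1045 in VM C, 339 in VM NF, 69 in Ctx AST and 0 in Ctx NPC.

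VM NF against VM C compares the library titled for Nurr1 and Foxa2 with the library titled as control. VM C stands in both this comparison and the one before, so the values mirror those above and are no further evidence. Bmp4 was 14.4-fold higher in VM NF, at a log2 ratio of 3.85 [3.53 to 4.20]. Bmp6 had 2.59 [2.39 to 2.80], Nog 2.47 [2.18 to 2.79] and Chrdl1 2.41 [2.25 to 2.57], and all 3 were higher by more than 5-fold in VM NF. Id1 was at 1.36 [1.30 to 1.42] and Id3 at 1.31 [1.26 to 1.35]. Grem1 was at -1.06 [-1.21 to -0.91], Bmp7 at -0.67 [-0.86 to -0.49], Id2 at -0.64 [-0.71 to -0.58] and Bmp2 at -0.33 [-0.61 to -0.06]. Past 2-fold, 6 of the 10 genes were higher and 1 lower, beside 9.53% and 9.73% of all transcripts. If the treatment entries of the labels are right, every direction here is that of mock virus against Nurr1 and Foxa2 virus.

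VM NF against VM compares the library titled NF with the untransduced culture, and here none of the BMP genes passed 2-fold. Bmp4 had a log2 ratio of 0.01 [-0.12 to 0.13], Nog 0.07 [-0.11 to 0.24], Grem1 -0.04 [-0.22 to 0.14], Bmp2 0.07 [-0.22 to 0.37] and Bmp7 0.12 [-0.10 to 0.33]. The intervals of these 5 genes hold 0, so at this depth no difference was detectable between the 2 libraries, and none of the intervals reaches 1.5-fold.

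The largest ratios of this comparison were those of Chrdl1 at 0.47 [0.36 to 0.57], Id3 at -0.30 [-0.33 to -0.26] and Bmp6 at 0.28 [0.17 to 0.40]. Id2 was at -0.11 [-0.18 to -0.04] and Id1 at 0.05 [0.00 to 0.09]. These intervals exclude 0 by counting error alone, and without a second library it is not known whether a repeat culture would differ as much. None of the 10 genes passed 2-fold, beside 0.668% of all transcripts lower and 0.322% higher.

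**Figure D3:**
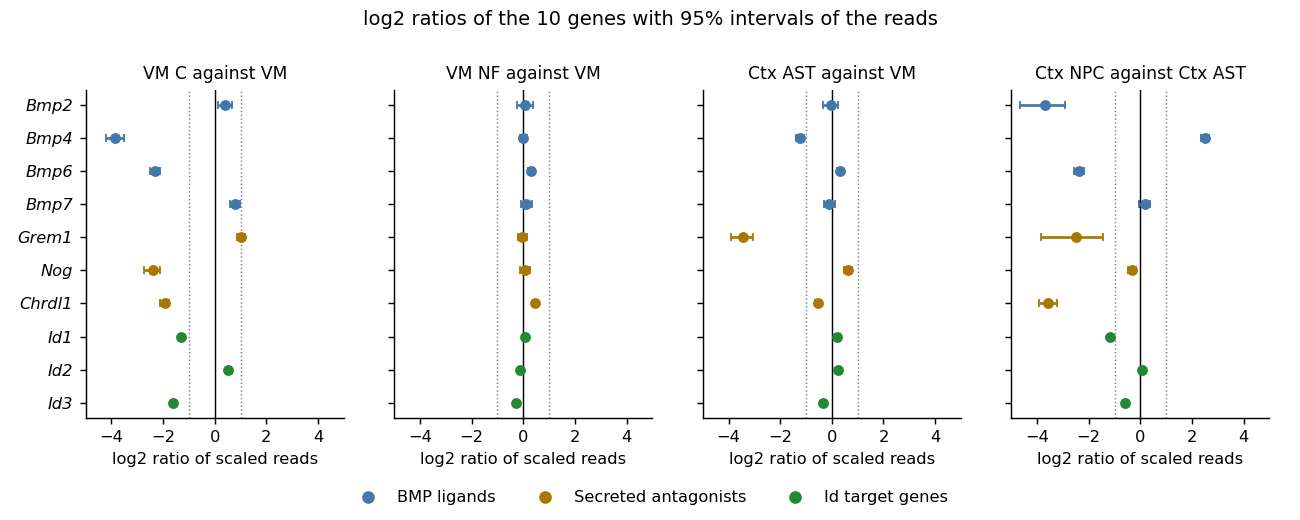
Log2 ratio of reads scaled to library totals for the 10 genes in 4 comparisons, with bars for the 95% counting interval and dotted lines at 2-fold. In VM NF against VM all 10 points lie between the dotted lines, while in VM C against VM Bmp4 lies at -3.84.

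Ctx AST against VM compares astrocyte cultures of the same age from cortex and ventral midbrain. Grem1 was 11.0-fold lower in the cortical culture, at a log2 ratio of -3.46 [-3.92 to -3.05], and 103 of 12553 transcripts had a lower ratio. Bmp4 was 2.37-fold lower, at -1.24 [-1.40 to -1.09]. Nog had a ratio above 0, at 0.62 [0.46 to 0.78], which is 1.54-fold and short of the limit. Chrdl1 had -0.54 [-0.65 to -0.42], Bmp6 0.31 [0.20 to 0.43], Bmp7 -0.10 [-0.32 to 0.12] and Bmp2 -0.05 [-0.35 to 0.25].

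The Id genes were within 1.3-fold of their midbrain level, with Id1 at 0.19 [0.14 to 0.23], Id2 at 0.25 [0.19 to 0.32] and Id3 at -0.36 [-0.39 to -0.32]. Bmp4 was lower in Ctx AST, while Id1 and Id2 had ratios above 0. Past 2-fold, 2 of the 10 genes were lower and none was higher, beside 9.89% and 4.49% of all transcripts. VM serves in this comparison and in those of VM C and VM NF. Astrocyte markers summed to 4138 CPM in Ctx AST against 1793 in VM, with 8 of 10 higher and Aqp4 at 11716 against 4980 reads. Microglial markers summed to 55.8 against 202 CPM, with 9 of 10 lower, and ependymal markers to 485 against 328, with 3 of 6 lower. The part of these cells in the differences was not tested.

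Ctx NPC against Ctx AST compares embryonic cortical progenitors with postnatal cortical astrocytes. Bmp4 was 5.62-fold higher in Ctx NPC, at a log2 ratio of 2.49 [2.35 to 2.64]. Bmp2 was lower at -3.68 [-4.67 to -2.92], Chrdl1 at -3.57 [-3.93 to -3.24], Grem1 at -2.47 [-3.83 to -1.46] and Bmp6 at -2.37 [-2.57 to -2.18]. Bmp2, Grem1 and Chrdl1 had an FPKM above 1 in Ctx AST only, so they entered the count through the library where they were high.

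Of the Id genes, Id1 was lower at -1.18 [-1.24 to -1.13] and Id3 at -0.61 [-0.65 to -0.56], while Id2 was at 0.07 [0.01 to 0.13]. Nog had -0.31 [-0.46 to -0.16] and Bmp7 0.16 [-0.06 to 0.38]. Bmp4 was highest in the library where Id1 and Id3 were lower than in any library but VM C. Past 2-fold, 5 of the 10 genes were lower and 1 higher, beside 17.9% and 20.1% of all transcripts. The median log2 ratio of all transcripts was 0.19 here, and it came to 0.01 or 0.02 under the other scalings, so values near 0 carry no direction. Oligodendrocyte precursor markers summed to 5657 CPM in Ctx NPC against 529 in Ctx AST, mature oligodendrocyte markers to 7754 against 311, astrocyte markers to 10364 against 4138 and neuronal markers to 1033 against 418. Of the precursor markers, 7 of 8 were higher in Ctx NPC, and the exception was the defining gene Cspg4, with 1589 reads in Ctx NPC against 2634 in Ctx AST. Tubb3 had 4735 against 390 reads and Rbfox3 118 against 8. Microglial markers went the other way, with a sum of 1.70 CPM in Ctx NPC against 55.8 in Ctx AST and 9 of 10 lower. Ependymal markers summed to 136 against 485 CPM, with 5 of 6 lower. Endothelial markers summed to 8.35 against 30.2 CPM, with 3 of 6 lower, 2 higher and 1 equal. Ctx NPC differs from Ctx AST in age, cell type and these markers together, and these cannot be told apart.

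The rest of the pathway was followed in 78 further transcripts in 6 lists. These are other ligands, receptors and co-receptors, other antagonists and modulators, Smads and their regulators, other target genes, and the E proteins and basic helix-loop-helix partners of Id proteins. In VM C against VM, 57 of the 78 passed the FPKM limit, of which 16 were lower and 5 higher, beside the shares of 8.48% and 7.30% given above. The median log2 ratio of the 57 was -0.28, against -0.01 over all transcripts tested. Where both libraries had to have an FPKM above 1, 11 lower and 3 higher genes were left. The others entered through the library where they were high. Over all transcripts, this stricter limit left 687 of 1077 lower and 636 of 927 higher. In VM NF against VM, 55 passed the limit and none was past 2-fold in either direction, with a median of 0.08 against -0.05. Only 0.668% of all transcripts were lower and 0.322% higher there, so nothing particular to these genes is read from the 0.

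Among the other ligands, Gdf11, a relative of myostatin, had the highest FPKM at 10.2 to 15.9 and was past 2-fold in none of the 5 comparisons. Gdf10 had 302 reads in VM, 118 in VM C, 179 in VM NF, 15 in Ctx AST and 26 in Ctx NPC, with a log2 ratio of -1.43 in VM C against VM and of -4.30 in Ctx AST against VM. Bmp8a was at 77, 31, 134, 85 and 2 reads. Of the 14 ligands listed, 4 passed the FPKM limit in VM C against VM, 2 of them lower (Gdf10 and Bmp8a), beside 8.48% of all transcripts. In Ctx AST against VM, 6 passed, with Gdf10 and Gdf6 lower and Bmp3 (1.41) and Gdf5 (1.07) higher. Of all transcripts, 9.89% were lower and 4.49% higher. Bmp3 and Gdf5 had an FPKM above 1 in Ctx AST only, at 1.17 and 1.33, and so entered through the library where they were high. The same holds for the lower genes Gdf10 and Gdf6, which were above 1 in VM but at 0.279 and 0.251 in Ctx AST. In VM C against VM it holds for Bmp8a, which was above 1 in VM but at 0.571 in VM C.

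Of 12 receptors and co-receptors that passed the FPKM limit in VM C against VM, 1 was lower and 1 higher (8.33% each), close to the shares of all transcripts. Tgfbr3, a co-receptor also called betaglycan, was lower at -1.06 and Bmpr1b, a type I receptor, higher at 1.92. Bmpr1b entered through the library where it was high, with an FPKM of 0.496 in VM and 1.89 in VM C. Bmpr1a, the more abundant type I receptor, had 4958 reads in VM, 3848 in VM C, 4995 in VM NF, 9312 in Ctx AST and 9364 in Ctx NPC, and Rgma, a co-receptor, 3355, 2112, 3528, 6039 and 7069. Bmpr1b had 55, 222, 49, 79 and 1452 reads and was 4.29 higher on the log2 scale in Ctx NPC than in Ctx AST. Acvrl1 and Eng, a receptor and co-receptor known from endothelium, were lower in Ctx AST than in VM, at -1.57 and -1.44, as was Tgfbr3 at -1.33. In Ctx NPC against Ctx AST, Acvrl1 was at -5.55 and Eng at -3.85. Acvrl1 had 7 reads and an FPKM of 0.0952 in Ctx NPC against 4.77 in Ctx AST, and so entered through the library where it was high. The same holds there for Bmpr1b, with an FPKM of 0.708 in Ctx AST and 13.9 in Ctx NPC.

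Among the other antagonists, Fst (follistatin) was also low in VM C, with 4238 reads in VM, 527 in VM C, 3909 in VM NF, 2769 in Ctx AST and 669 in Ctx NPC. Its log2 ratio was -3.09 in VM C against VM. Chrd (chordin) had 237, 41, 193, 116 and 95 reads, with a log2 ratio of -2.60. Of the 13 that passed the limit in VM C against VM, 5 were lower and 2 higher, beside 8.48% and 7.30% of all transcripts. Bmper was among the higher at 1.11, and the median of the 13 was -0.68. Fstl1, a secreted relative of follistatin, was the most abundant at an FPKM of 425 in VM, 204 in VM C, 396 in VM NF, 213 in Ctx AST and 50.5 in Ctx NPC. In Ctx AST against VM, 4 of 11 were lower, Kcp furthest at -2.08, and none higher, beside 9.89% and 4.49% of all transcripts. In Ctx NPC against Ctx AST, 6 of 10 were lower, Fstl3 furthest at -4.38, and Bmper (1.88) and Vwc2 (4.14) were higher. Of all transcripts, 17.9% were lower and 20.1% higher there.

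All 12 Smads and their regulators passed the FPKM limit in every comparison. Smad1, a transducer of BMP signals, had 1515 reads in VM, 1319 in VM C, 1470 in VM NF, 1592 in Ctx AST and 1749 in Ctx NPC, and Smad4, their common partner, 1864, 1845, 2130, 1895 and 2073. In VM C against VM, Smad9 (-1.02) and Smad6 were past 2-fold lower, just beyond the limit. These 2 of 12 are 16.7% of the list, beside 8.48% of all transcripts. Smad6 is an inhibitor of BMP signals and itself a target of them, and had 1118, 590, 972, 691 and 157 reads. None of the 12 was past 2-fold in Ctx AST against VM, beside 9.89% of all transcripts lower and 4.49% higher. In Ctx NPC against Ctx AST, Smad6 (-2.04) and Smad3 (-1.78) were lower, beside 17.9% of all transcripts. Ski, a repressor of Smads, was the most abundant of the list with 5360 to 8452 reads.

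Of the other target genes, 10 passed the limit in VM C against VM, with 5 lower and 1 higher, beside 8.48% and 7.30% of all transcripts. The median of the 10 was -1.09. Msx1, a homeobox gene, had 539 reads in VM, 122 in VM C, 536 in VM NF, 79 in Ctx AST and 13 in Ctx NPC, with a log2 ratio of -2.22. Hey1, which is also a Notch target, had 1281, 433, 1195, 2053 and 3276 reads and a ratio of -1.65. Dlx2 was at -1.41, Atoh8 at -1.34 and Id4, the fourth Id gene, at -1.27 with 931, 408, 772, 875 and 1356 reads. Zeb2, a repressor that binds Smads, was higher at 1.40. Id4 and Hey1 were low in VM C, as Id1 and Id3 were, but in Ctx NPC they had their highest read numbers.

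In Ctx AST against VM, 4 of 11 target genes were lower (Msx1 at -2.77, Tbx3 at -2.07, Hes1 at -1.69 and Msx2 at -1.06) and Dlx1 was higher at 1.53, with an FPKM above 1 in Ctx AST only. Of all transcripts, 9.89% were lower and 4.49% higher. In Ctx NPC against Ctx AST, 4 of 11 were lower and 4 higher, beside 17.9% and 20.1% of all transcripts. Runx2 (-5.41) and Msx2 (-4.51) were furthest down. Dlx5, a homeobox gene of forebrain interneurons, had 267 reads in Ctx NPC and 0 in the other libraries, which is at least 95.3-fold higher than Ctx AST at a floor of 3 reads in that library. Dlx1 was at 3.97 with 1334 against 91 reads.

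The partners of Id proteins include factors of several lineages. Tcf12, an E protein, had 4909 reads in VM, 6788 in VM C, 5369 in VM NF, 3076 in Ctx AST and 7555 in Ctx NPC, and Tcf4 4705, 8366, 4978, 8846 and 5529. Of 6 that passed the limit in VM C against VM, Olig2, a factor of the oligodendrocyte lineage that is also counted among the markers above, was higher at 1.54 with 885 reads in VM and 2725 in VM C, and Hey2 was lower at -1.07. Of all transcripts, 7.30% were higher and 8.48% lower. In Ctx NPC against Ctx AST, 5 of 8 were higher and none lower, beside 20.1% and 17.9% of all transcripts, with Olig2 at 3.27.

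**Figure D4:**
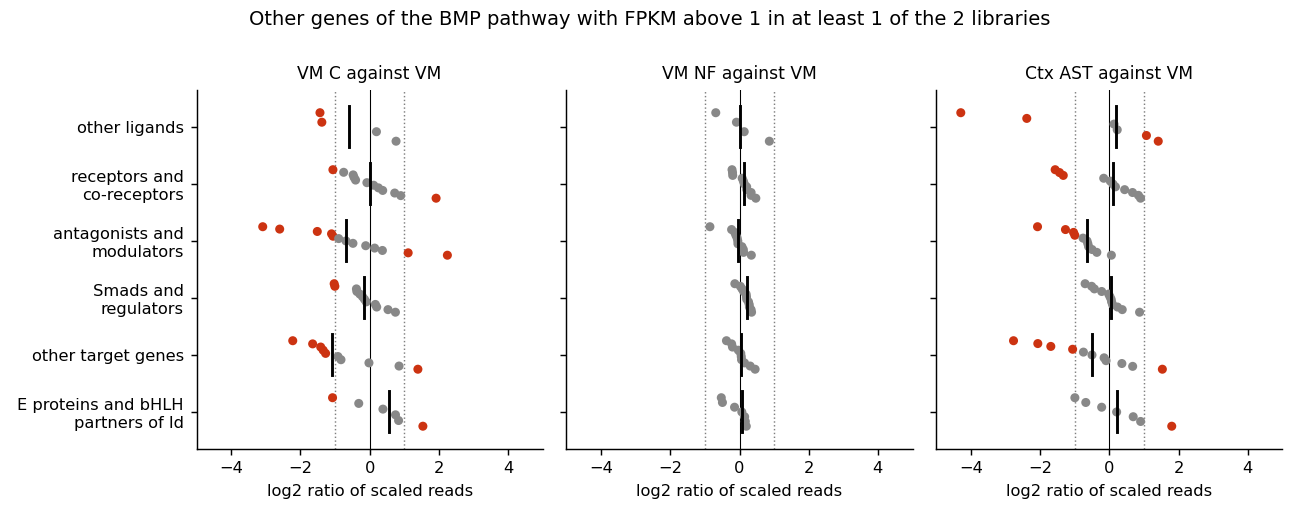
Log2 ratios of the other BMP pathway genes with FPKM above 1 in at least 1 of the 2 libraries, by list, in 3 comparisons. Each point is 1 gene, red past 2-fold, the black bar is the median of the list and the dotted lines mark 2-fold. Red points appear in VM C against VM and in Ctx AST against VM, with none among the 55 genes of VM NF against VM.

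Over all 6 lists, 13 of 58 genes were lower and 4 higher in Ctx AST against VM, beside 9.89% and 4.49% of all transcripts, with a median of -0.16 against -0.05 over all transcripts. The 4 higher genes were lost, and 9 lower ones were left, where both libraries had to have an FPKM above 1. Over all transcripts, 755 of 1242 lower and 414 of 564 higher were left. In VM NF against VM C, 7 of 57 were lower and 12 higher, beside 9.73% and 9.53%, with a median of 0.31 against -0.02. With FPKM above 1 in both libraries, 5 lower and 9 higher were left, beside 856 of 1236 lower and 819 of 1210 higher over all transcripts. In Ctx NPC against Ctx AST, 19 of 57 were lower and 12 higher, beside 17.9% and 20.1%, with a median of -0.19 against 0.19. By the same stricter limit, 9 lower and 8 higher were left, beside 1460 of 2259 lower and 1933 of 2538 higher over all transcripts. The 21 further transcripts in VM C against VM had an FPKM of 1 or less in both libraries, Bmp5, Bmp10 and Cer1 among them.

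The transcripts whose levels over the 5 libraries ran most like each gene's were ranked by the Euclidean distance of log2 CPM centred on each transcript's mean, among 13298 transcripts. The libraries are 5 points of 1 culture each, so likeness is a description and says nothing of shared function or control. Nearest to Bmp4 were Cntnap2 (distance 0.897), Trp73 (1.11), Tmem132d (1.13), Mycl (1.26) and Cldn19 (1.26). Trp73, Tmem132d and Cldn19 had 4 reads each in VM C, near the floor of 3 reads. Trp73 and Tmem132d had an FPKM above 1 in Ctx NPC only, at 1.10 and 2.67, and so entered through the library where they were high. Cntnap2 had 148 reads in VM, 15 in VM C, 168 in VM NF, 144 in Ctx AST and 436 in Ctx NPC, and like Bmp4 was lowest in VM C and highest in Ctx NPC. Of the genes described here, Nog came closest to Bmp4, at place 110.

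Id3 ran closest to Kif9 at a distance of 0.0461, then Tmem107 and Pkdcc, with Id1 at place 52. Nearest to Id1 were Rai2, Pcsk4 and Ctsf, with Id3 at place 126, and nearest to Id2 were Phka1, Lig4 and Sod2. Among the 3 nearest to Grem1 were Aldh1a2 and Il6. Aldh1a2 is also in the list of meningeal fibroblast markers, and had 1540 reads in VM, 1983 in VM C, 1258 in VM NF, 119 in Ctx AST and 22 in Ctx NPC.

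Nog was nearest to Epha4, Prom1 and Plagl1, and Chrdl1 to Ccn1, Gprc5c and Itga8. Among the ligands, Bmp6 was nearest to Efna3, Zmynd10 and Hyal3, Bmp7 to Tpr, Uhrf1bp1l and Myo5a, and Bmp2 to Tbx15, Tmod1 and H60b. None of the 10 genes had another of the 10 among its 3 nearest.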

How the data were processed

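RNA was sequenced from 5 mouse cultures, 1 library each. Per the study's methods, the authors trimmed reads at a quality of 20, mapped them with STAR to GRCm38 (mm10) and counted reads on exons of RefSeq with HTSeq-count, while the submitters' processing notes name mm9, bcl2fastq 1.8.4, STAR, HTSeq and DESeq. The deposited read counts per transcript are raw whole numbers. The deposited FPKM values were made by the authors from these counts, and FPKM recomputed from counts, lengths and library totals differed by at most 4.09e-05 of the value. Strand use in counting is not given in the sources used here.

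Transcripts were given symbols from a RefSeq gene table (19997 of 20178 matched, 181 did not). Coordinates, promoter windows and overlaps are on GRCm38.p6. Reads were scaled to library totals (20010818 to 22554835), log2 ratios were taken with 0.5 reads added, scaled to library size, and 95% intervals are exact Clopper-Pearson intervals of the reads, which cover counting error only. A gene was past the limits at 2-fold where either library had an FPKM above 1, and 3 reads were the floor of a library. With 1 library per condition no test across cultures was possible. A row giving the total of mapped fragments in each file was left out.

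All 10 genes are named in every library. In each pathway list the genes past the limits were named, at most 4 per direction and comparison by size, with the genes of the highest FPKM, and Nr4a2 and Foxa2 as transduced genes. For likeness the 5 nearest transcripts to Bmp4 and the 3 nearest to each other gene are named, and of each marker list the count, sum and defining genes. Grem1's neighbour Aldh1a2 falls under this rule, while the read numbers of Txndc5 and Cldn5, the values of Id4, Tcf4, Smad1 and Smad4, and the names Bmp5, Bmp10 and Cer1, were chosen after their values were seen. The 10 genes and the lists were chosen with earlier results of these data known. The intervals and counts were tested on simulated data that held counting error only, so that test says nothing of the spread between cultures. Alternatives used edgeR 4.0.16 and DESeq2 1.42.0 for size factors only, in R 4.3.3; the rest ran in Python 3.11.15. Some genes that this rule would name are not reported here.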

Additional observations from a re-analysis of the deposited data

How the results depend on the processing

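Scaling by edgeR's TMM, DESeq2's size factors or upper quartiles, and adding other numbers of reads, gave 250 values for the 10 genes, of which 250 stayed on the same side of 2-fold and 241 kept their sign. The 9 others lay near 0: Grem1 in VM NF against VM, Bmp2 in Ctx AST against VM, and Bmp7 and Id2 in Ctx NPC against Ctx AST. Bmp4 in Ctx NPC against Ctx AST came to 2.31 under TMM, 2.31 under DESeq2's size factors and 2.32 under upper quartiles, and the median of all transcripts moved from 0.19 to 0.01, 0.01 and 0.02. Of 100 counts, 85 stayed within 1.5 times. Under a limit of 1.5-fold, the pathway genes past it numbered 33 of 57 in VM C against VM and 34 of 57 in VM NF against VM C. They numbered 3 of 55 in VM NF against VM and 32 of 58 in Ctx AST against VM. Beside these, 2207 of all 12703 transcripts were lower and 1859 higher in VM C against VM. The numbers were 2429 and 2389 of 12701 in VM NF against VM C, and 514 and 319 of 12428 in VM NF against VM. In Ctx AST against VM they were 2138 and 1309 of 12553. Under 2.6-fold the pathway genes numbered 12, 10 and 11 in VM C against VM, VM NF against VM C and Ctx AST against VM. The 10 genes gave 4 in VM NF against VM C and 1 in Ctx AST against VM. At 2.6-fold, 648 of all transcripts were lower and 598 higher in VM C against VM. The numbers were 789 and 683 in VM NF against VM C, and 877 and 279 in Ctx AST against VM. With no FPKM limit, 30 pathway genes passed in VM NF against VM C and 7 in VM NF against VM. Of all 20178 transcripts, 2453 were lower and 2388 higher in VM NF against VM C, and 1020 and 759 in VM NF against VM. With FPKM above 1 in both libraries, 9 passed in Ctx AST against VM (9 lower, 0 higher) and 17 in Ctx NPC against Ctx AST, where 3 of the 10 genes passed, and with at least 10 CPM 10 passed in Ctx AST against VM (10 lower, 0 higher). By FPKM in both libraries, 755 of all transcripts were lower and 414 higher in Ctx AST against VM. The numbers were 1460 and 1933 in Ctx NPC against Ctx AST. With at least 10 CPM, 751 were lower and 427 higher in Ctx AST against VM. The changes in these counts follow from the limits themselves. Over all transcripts, the share of calls that were lower in VM NF against VM was 67.5%, or 55.3% under TMM and 41.7% (15 lower, 21 higher) with at least 10 CPM, and in Ctx NPC against Ctx AST 47.1%, or 56.1% under TMM. No paired analysis was possible because each condition has 1 library and the labels give no replicate numbers. Depth limits the genes under about 100 reads, such as Grem1 with 8 and Bmp2 with 13 reads in Ctx NPC, whose intervals are the widest.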
